A study of Mus musculus with 12 samples.

Results

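The 52 mouse genes described here encode the machinery that copies DNA during S phase, together with genes whose transcription rises as cells enter S phase. They were chosen by name, as known parts of the replication machinery, with earlier results of the series known. That series compares the embryonic thalamus with and without the transcription factor gene Gbx2. Every probe carrying the current or an earlier symbol of a member was taken. By role, 10 members belong to the replicative helicase, 4 to origin licensing, 8 to the polymerases and primase, 10 to the sliding clamp, single-strand binding and ligation, 5 to nucleotide supply, 6 to chromatin at the fork, 6 to fork protection and 3 to the drive into S phase. Of the 52, 36 could be tested over both chips of the series, among 10396 genes tested in all. A further 8 (Cdc45, Orc1, Cdc6, Pola1, Pole2, Rrm2, Hells and Timeless) have probes on both chips that stayed below the detection filter, and 8 (Mcm3, Cdt1, Prim1, Prim2, Pold1, Pold2, Pcna and Rfc3) have probes on chip 2 only. Of these 16, 13 were tested on chip 2 alone, and Pola1, Pole2 and Hells were not measured above background often enough to be tested.

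RNA came from regions of the diencephalon dissected out of CD1 embryos at E12.5 and was hybridised to Illumina mouse bead arrays, which report the brightness of each probe. The groups were 4 arrays of Gbx2 knockout (KO) thalamus, 1 array of wild-type (WT) epithalamus, 1 array of WT prethalamus and 4 arrays of WT thalamus. KO and WT replicates 1 and 2 and the epithalamus and prethalamus arrays lie on chip 1, and KO and WT replicates 3 and 4 lie on chip 2. The labels mark replicate 5 of each genotype, also on chip 2, as an excluded outlier, and these 2 arrays are shown apart. The labels give neither the design of the knockout allele nor the number of embryos behind an array. The p-values therefore measure the spread between these samples, which may be technical.

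Replication begins at origins that are licensed in G1, when the origin recognition complex, Cdc6 and Cdt1 load the ring-shaped Mcm2-7 helicase onto DNA. At the start of S phase Cdc45 and the GINS complex join that ring, polymerases and the clamp assemble at the fork, and chromatin is rebuilt behind it. Many of these genes are targets of the E2F transcription factors, which cyclin E and its kinase help to release. In the embryonic forebrain S phase is confined largely to the progenitors lining the ventricle, while neurons that have left the cycle lower these transcripts.

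The share of probes detected ran from 30.7% to 36.04% over the chip 1 arrays and from 44.8% to 46.4% over the chip 2 arrays. Gbx2 itself had log2 intensities of 13.04, 12.77, 13.75 and 14.04 on KO replicates 1 to 4, against 13.73, 13.30, 15.95 and 15.75 on WT replicates 1 to 4. On replicate 5 it stood at 13.69 in KO and 15.18 in WT, so on each of the 2 chips every KO array lay below every WT thalamus array, the excluded ones included. Whether the Gbx2 probe lies in the deleted stretch is not known here. All 7 thalamic marker genes that passed the detection filter, of 8 listed, were detected on all 8 arrays compared.

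Transcripts of replication and S-phase genes read higher in KO thalamus than in WT thalamus on the 8 arrays compared. Of the 36 members tested, 15 rose in KO thalamus, none fell and 21 did not pass the test (limma, Benjamini-Hochberg adjusted p under 0.05 over all genes). Among all genes tested, 1.40% rose and 1.48% fell. The 15 were Mcm5, Mcm10, Gins1, Gins2, Rpa2, Fen1, Rrm1, Tyms, Tk1, Chaf1a, Chaf1b, Asf1b, Clspn, Fanci and E2f1. The median log2 difference, KO minus WT, was 1.07 over the members and -0.02 over all genes tested, and 35 of the 36 members had a positive difference, against 47.7% of all genes. For 27 of the 36, both KO arrays of each chip lay above both WT arrays of that chip, as for 10.3% of all genes. Because the set was chosen with earlier results of these data known, these contrasts with all genes are descriptive only. In bulk tissue more cells in S phase and more RNA per cell cannot be told apart.

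The number of members past the threshold depended on single arrays. It was 1, 3, 4 and 1 without KO replicates 1, 2, 3 and 4, and 27, 1, 1 and 0 without WT replicates 1, 2, 3 and 4. The share of all genes called, in either direction, was 0.606%, 0.827%, 1.36% and 0.789% without KO replicates 1 to 4. It was 5.9%, 1.07%, 1.01% and 0.664% without WT replicates 1 to 4, against 2.89% with all 8 arrays. The members' median difference moved less, between 0.85 and 1.25. On chip 1 alone none of the 36 passed (19 had an unadjusted p under 0.05), with a median of 0.84, and on chip 2 alone 2 passed, with a median of 1.26. Once both replicate 5 arrays were added, none passed in limma's test (4 had an unadjusted p under 0.05), and the median was 0.56. Of all genes, 0% were called on chip 1 alone, 0.433% on chip 2 alone and 0.144% with both replicate 5 arrays. At every one of these settings 0 members fell.

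**Figure D1:**
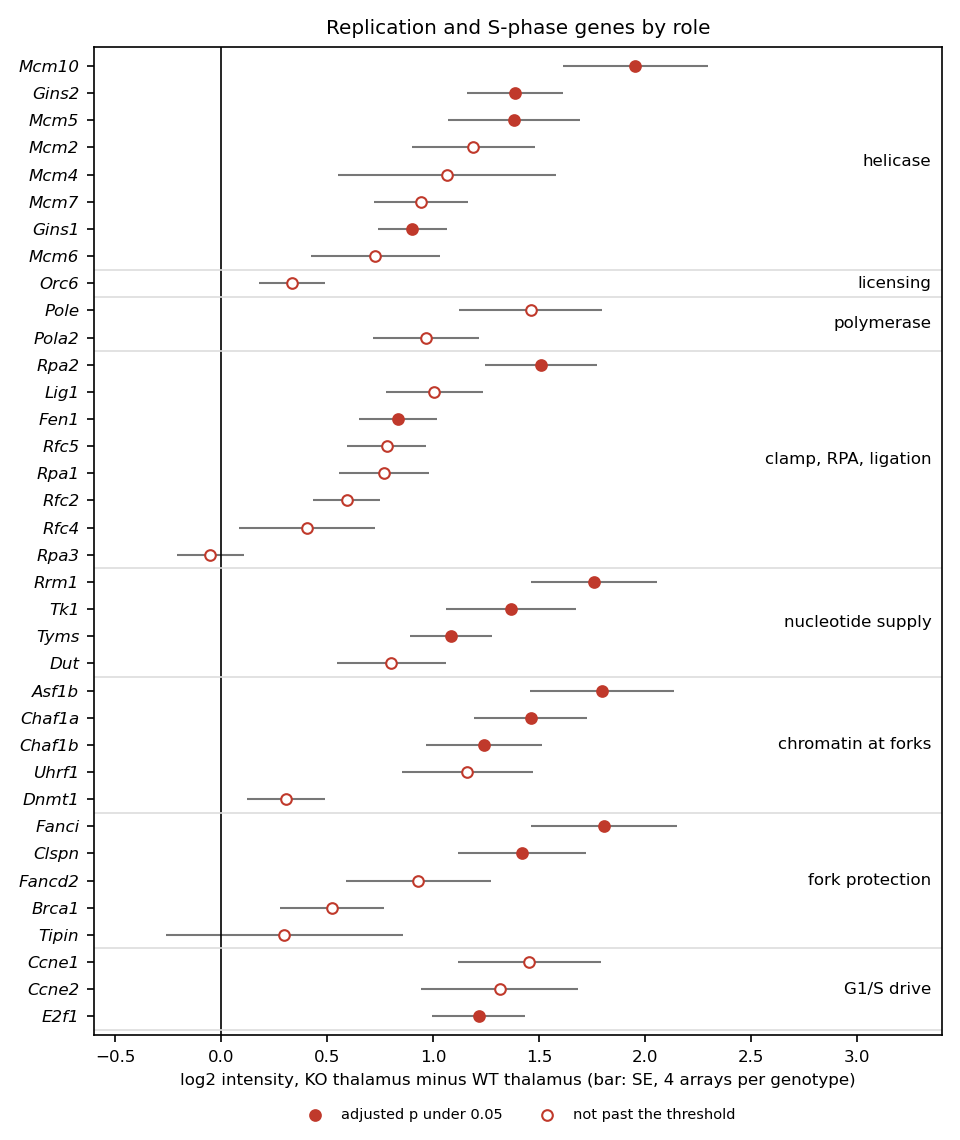
Each point is the log2 difference, KO thalamus minus WT thalamus, of a tested member, grouped by role, with its standard error as a bar (4 arrays per genotype, chip as a block). Filled points passed an adjusted p of 0.05, and 35 of the 36 points lie right of 0, with Mcm10 at 1.95 the farthest right and Rpa3 at -0.05 the farthest left.

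The level of the set varied from array to array, also within a genotype. As a difference from the kept WT thalamus arrays of the same chip, the mean of the 36 members stood at 0.81 and 0.79 on KO replicates 1 and 2 and at 1.67 and 0.96 on KO replicates 3 and 4, against 0.40 and -0.40 on WT replicates 1 and 2 and 0.03 and -0.03 on WT replicates 3 and 4. On chip 1 the WT arrays thus differed from each other, with 32 of the 36 members higher on WT replicate 1 than on WT replicate 2, as were 54.6% of all genes. On chip 2 the KO arrays differed from each other, with 35 of the 36 higher on KO replicate 3 than on KO replicate 4, as were 47.9% of all genes. The KO arrays of chip 1 exceeded WT replicate 1, the WT array of chip 1 with the higher mean, for 29 of the 36 members, as for 41.2% of all genes.

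On the excluded arrays the order of the genotypes was turned round. The mean of the 36 members stood at 0.18 on KO replicate 5 and at 1.60 on WT replicate 5, and all 36 were lower on KO replicate 5 than on WT replicate 5, as were 48.7% of all genes. WT replicate 5 lay above both kept WT arrays of its chip for 35 members (37.4% of all genes), above KO replicate 4 for 35 (50.3%) and above KO replicate 3 for 16 (51.8%). KO replicate 5 lay below both kept KO arrays of its chip for all 36 (29.2% of all genes), and above both kept WT arrays for 23 (33.7%). Neuronal markers ran the other way on 2 of these arrays: the mean of 10 genes stood at -0.70 on KO replicate 3 and at -1.13 on WT replicate 5, and between -0.19 and 0.09 on the other 8 thalamus arrays. The part of this in the difference between genotypes was not tested.

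**Figure D2:**
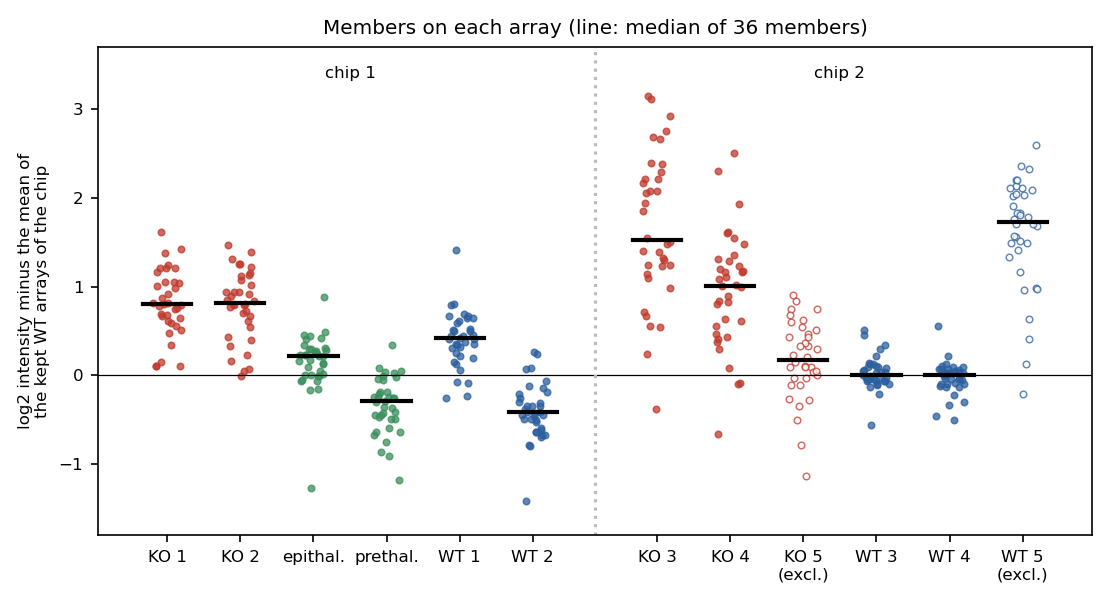
Each point is a tested member on an array, as its log2 intensity minus the mean of the kept WT thalamus arrays of that chip, and black lines mark the median of the 36 members (red KO thalamus, green WT epithalamus and prethalamus, blue WT thalamus, open points excluded arrays). The medians are 0.80 and 0.82 on KO replicates 1 and 2, 1.53 and 1.01 on KO replicates 3 and 4, 0.18 on the excluded KO replicate 5 and 1.73 on the excluded WT replicate 5.

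The promoters of the set were searched for the E2F motif, because E2F factors are the known activators of many members. RefSeq promoter windows of GRCm38.p6, from 250 bases before to 50 bases after the annotated start, were found for 43 of the 52 members. The motif was spelled as TTTGGCGC, TTTCGCGC or TTTCCCGC on either strand, and matches may overlap. It was present for 16 of the 43 members (37.2%), against 2.12% of all genes with a promoter window, or 1.84% of all 32851 windows. By the test of expression, 2 of the 13 members that rose and have a window hold it (Mcm5 and Clspn). So do 5 of 15 that were tested and did not pass, and 9 of 15 that were not tested over both chips. Whether these shares differ was not tested. The annotated starts were not checked, so a window without a match, such as that of E2f1, may not hold the promoter in use. The plain CCAAT box, on either strand, was present for 25 of the 43 members (58.1%), against 41.1% of all genes. A few windows are shown so that these can be compared, with the E2F matches in capitals: Mcm5 and Clspn, which rose and hold matches, Mcm6, which did not pass the test and holds 3, and Mcm10, which had the largest difference of the 36 and holds none.
Mcm5, chr8:75109259-75109558, plus strand: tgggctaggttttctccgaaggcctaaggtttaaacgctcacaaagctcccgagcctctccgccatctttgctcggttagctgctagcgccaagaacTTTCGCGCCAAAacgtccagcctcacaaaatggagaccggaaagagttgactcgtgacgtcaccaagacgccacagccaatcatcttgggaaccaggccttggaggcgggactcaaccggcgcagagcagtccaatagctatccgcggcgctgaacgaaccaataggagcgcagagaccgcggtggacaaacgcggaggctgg
Clspn, chr4:126556730-126557029, plus strand: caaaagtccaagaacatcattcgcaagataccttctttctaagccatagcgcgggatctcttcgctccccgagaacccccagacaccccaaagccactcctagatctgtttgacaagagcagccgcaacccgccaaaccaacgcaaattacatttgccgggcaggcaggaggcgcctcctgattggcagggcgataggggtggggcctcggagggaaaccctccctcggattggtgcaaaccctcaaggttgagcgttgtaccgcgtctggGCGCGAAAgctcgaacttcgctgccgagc
Mcm6, chr1:128359656-128359955, minus strand: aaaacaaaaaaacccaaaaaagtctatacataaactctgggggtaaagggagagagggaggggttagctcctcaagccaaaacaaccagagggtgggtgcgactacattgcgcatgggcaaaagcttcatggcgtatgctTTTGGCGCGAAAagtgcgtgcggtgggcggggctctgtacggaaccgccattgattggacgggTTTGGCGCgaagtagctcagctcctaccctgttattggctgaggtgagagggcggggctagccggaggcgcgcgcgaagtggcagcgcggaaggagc
Mcm10, chr2:5012742-5013041, minus strand: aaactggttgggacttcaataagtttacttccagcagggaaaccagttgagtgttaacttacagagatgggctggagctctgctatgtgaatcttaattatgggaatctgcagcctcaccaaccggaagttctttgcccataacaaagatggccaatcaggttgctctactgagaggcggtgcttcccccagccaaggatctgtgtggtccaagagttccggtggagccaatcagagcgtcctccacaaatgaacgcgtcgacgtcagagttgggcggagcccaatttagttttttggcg
Counted from the start, the matches begin at -153 and -149 in Mcm5, where they overlap, at 21 in Clspn, and at -110, -106 and -47 in Mcm6, where the first pair overlaps. The Mcm10 window ends in tttggcg, which is TTTGGCGC without its last letter, so a match across that edge would be missed. A match describes these letters only, and its absence in a window says nothing about binding of the factor.

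Of the helicase genes, 8 of 10 were tested, 4 rose and all 8 had positive differences, with a median of 1.13. Mcm10, a factor that helps to activate the loaded helicase, had log2 intensities of 7.11, 6.96, 9.37 and 8.74 on KO replicates 1 to 4, against 6.15, 5.33, 6.95 and 5.93 on WT replicates 1 to 4. On both chips its KO arrays lay above its WT arrays, and it rose by 1.95 on the log2 scale (SE 0.34, adjusted p = 0.0238), the largest difference of the 36 and a 3.87-fold change. It was detected on 3 of the 4 WT arrays, and a second probe, on chip 2 alone, stood at 2.11 there. The GINS genes encode subunits of the complex that joins Mcm2-7 at the start of S phase. Gins2 read 8.72, 8.47, 10.26 and 9.79 in KO and 7.60, 7.74, 7.96 and 8.39 in WT. It rose by 1.39 (SE 0.23, adjusted p = 0.0192), and a second joined probe stood at 1.16. Gins1 read 8.62, 8.56, 10.75 and 10.62 in KO and 8.05, 7.67, 9.73 and 9.48 in WT, and rose by 0.90 (SE 0.16, adjusted p = 0.0256). The GINS genes kept their KO arrays apart from their WT arrays on both chips, with the smallest gap for Gins1 on chip 1.

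The Mcm2-7 ring itself was represented by 5 tested genes, of which Mcm5 alone passed. Mcm5 read 11.07, 11.001, 14.16 and 12.98 in KO, against 10.56, 9.57, 11.82 and 11.74 in WT. It rose by 1.38 (SE 0.31, adjusted p = 0.049). Mcm2 read 9.41, 9.35, 12.70 and 11.36 in KO, against 8.81, 8.18, 10.50 and 10.57 in WT, with no overlap on either chip, and its difference of 1.19 (SE 0.29) did not pass (adjusted p = 0.0643). For both genes KO replicate 3 was the higher KO array of chip 2 and WT replicate 2 the lower WT array of chip 1. Mcm7 read 10.45, 10.37, 11.95 and 10.95 in KO and 9.79, 9.36, 10.46 and 10.34 in WT, a difference of 0.94 (SE 0.22, adjusted p = 0.058). Mcm6 read 10.02, 9.80, 12.68 and 11.73 in KO and 10.04, 8.70, 11.34 and 11.25 in WT, a difference of 0.73 (SE 0.30, adjusted p = 0.213). For Mcm6 the groups overlapped on chip 1, where WT replicate 1 was the highest array, and its other 2 joined probes stood at 0.64 and 1.45. By its joined probe Mcm4 was not above background on any array of chip 1, so its difference of 1.06 (SE 0.51) rests on chip 2, where it stood at 2.08. Its 2 further probes, on chip 2 alone, stood at 1.47 and 2.63 there. The first of these was the brightest, at 14.12 and 13.18 in KO, against 12.21 and 12.16 in WT.

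Licensing and polymerase genes are thinly covered by probes common to both chips. Orc6, the smallest subunit of the origin recognition complex, read 9.70, 9.76, 12.71 and 12.54 in KO and 9.37, 9.08, 12.40 and 12.53 in WT. Its KO arrays lay above its WT arrays on both chips by small margins, and its difference of 0.34 (SE 0.15, adjusted p = 0.252) did not pass. Pole, the catalytic subunit of the leading-strand polymerase epsilon, read 8.68, 8.54, 10.81 and 9.58 in KO and 8.15, 6.80, 8.42 and 8.42 in WT. Pola2, the accessory subunit of the polymerase alpha and primase complex that starts each strand, read 7.79, 8.09, 10.56 and 9.85 in KO and 7.49, 6.44, 9.21 and 9.27 in WT. For both, every KO array lay above every WT array of its chip, yet the differences of 1.46 (SE 0.34, adjusted p = 0.0539) for Pole and 0.97 (SE 0.25, adjusted p = 0.0736) for Pola2 missed the threshold.

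At the clamp and behind the fork, 8 of 10 genes were tested and 2 rose, with a median of 0.77. Rpa2 encodes the middle subunit of RPA, which coats single-stranded DNA. It read 8.66, 8.59, 10.17 and 9.44 in KO and 7.95, 6.96, 7.93 and 7.98 in WT, and rose by 1.51 (SE 0.26, adjusted p = 0.023). Its second joined probe stood at 1.11. The other RPA subunits had smaller differences. Rpa1 read 10.36, 10.39, 13.49 and 12.66 in KO and 9.97, 9.36, 12.29 and 12.21 in WT (difference 0.77, SE 0.21, adjusted p = 0.0915). Rpa3 read 9.43, 9.49, 11.67 and 11.95 in KO and 9.45, 9.20, 11.98 and 12.12 in WT, and with a difference of -0.05 (SE 0.16) it was the sole tested member below 0. On chip 2 both KO arrays of Rpa3 lay below both WT arrays. The sign of Rpa3 turned without KO replicate 3, without WT replicate 4 and on chip 1 alone, as given with the alternatives.

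Fen1, the nuclease that trims the flaps of Okazaki fragments, read 9.52, 9.64, 12.04 and 11.69 in KO, against 9.07, 8.37, 11.03 and 11.08 in WT. Its arrays separated by genotype on both chips, and it rose by 0.83 (SE 0.18, adjusted p = 0.0449), with nearly equal differences of 0.86 on chip 1 and 0.81 on chip 2. Lig1, the ligase that seals those fragments, stood at 1.01 (SE 0.23, adjusted p = 0.0522), with other joined probes at 1.55 and 0.97. Of the clamp loader genes, Rfc2 read 9.90, 9.90, 12.03 and 11.83 in KO and 9.05, 9.52, 11.45 and 11.28 in WT (difference 0.59, SE 0.16, adjusted p = 0.0825). Rfc5 stood at 0.78 (SE 0.19, adjusted p = 0.0608) and Rfc4 at 0.41 (SE 0.32, adjusted p = 0.504). By these joined probes Rfc4 overlapped between the genotypes on both chips, while Rfc2 and Rfc5 did not on either. A brighter Rfc4 probe, on chip 2 alone, did not overlap there. It read 12.05 and 11.57 in KO, against 10.95 and 10.88 in WT (difference 0.89, SE 0.31).

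Genes of nucleotide supply gave 3 calls among 4 tested, with a median of 1.23. Rrm1, the large subunit of ribonucleotide reductase, read 9.05, 9.32, 12.004 and 10.85 in KO, against 8.23, 7.47, 9.39 and 9.12 in WT. It rose by 1.76 (SE 0.30, adjusted p = 0.0221), although another probe, on chip 2 alone, stood at 0.97 there. Tyms, which makes thymidylate, read 9.40, 9.44, 12.49 and 12.37 in KO, against 8.84, 7.99, 11.29 and 11.23 in WT, and rose by 1.09 (SE 0.19, adjusted p = 0.0244). Its other 3 joined probes stood at 0.90, 1.31 and 0.54. Thymidine kinase 1, encoded by Tk1, salvages thymidine. Tk1 read 8.13, 7.91, 10.95 and 10.47 in KO, against 7.32, 5.72, 9.38 and 9.57 in WT, and rose by 1.37 (SE 0.31, adjusted p = 0.0474). WT replicate 2 was far below WT replicate 1 for Tk1, so that array pulls up the chip 1 difference of 1.501. Dut, which removes dUTP, read 8.08, 7.81, 8.74 and 8.40 in KO and 7.999, 6.81, 7.44 and 7.57 in WT. Its groups overlapped on chip 1, and the difference of 0.80 (SE 0.26, adjusted p = 0.126) did not pass.

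Among chromatin genes, the calls were those of histone chaperones. Chaf1a and Chaf1b encode the large and middle subunits of CAF-1, which deposits new histones behind the fork, and Asf1b hands histones to it. Chaf1a read 8.40, 8.23, 11.33 and 10.79 in KO, against 7.61, 6.33, 9.57 and 9.38 in WT, and rose by 1.46 (SE 0.27, adjusted p = 0.0256). Asf1b read 7.59, 7.47, 9.15 and 8.97 in KO, against 6.94, 6.12, 6.80 and 6.12 in WT, and rose by 1.80 (SE 0.34, adjusted p = 0.0273). In all, 3 of the 5 tested chromatin genes passed, and for each of the 3 the KO arrays lay above the WT arrays on both chips. Chaf1b read 9.28, 9.41, 12.40 and 11.51 in KO, against 8.93, 8.03, 10.44 and 10.24 in WT, and rose by 1.24 (SE 0.27, adjusted p = 0.0449). Uhrf1, which brings the maintenance methylase to newly copied DNA, read 11.82, 11.81, 14.60 and 13.74 in KO and 11.65, 10.36, 12.53 and 12.79 in WT, a difference of 1.16 (SE 0.31, adjusted p = 0.0808). Dnmt1, that methylase, differed little: it read 9.69, 9.78, 12.46 and 12.21 in KO and 9.89, 9.20, 11.81 and 12.01 in WT, a difference of 0.30 (SE 0.18, adjusted p = 0.383), with WT replicate 1 the highest array of chip 1.

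Among the fork protection genes 2 of 5 tested rose. Fanci, which with its partner Fancd2 is loaded at crosslinked or stalled forks, read 6.82, 6.89, 9.14 and 7.57 in KO and 5.83, 5.32, 5.99 and 6.05 in WT. It rose by 1.81 (SE 0.34, adjusted p = 0.0277), with KO replicate 3 well above every other array of chip 2. Clspn encodes claspin, the adaptor that carries the checkpoint signal from stalled forks. Clspn read 8.84, 8.82, 11.09 and 10.30 in KO and 8.37, 6.98, 8.91 and 9.13 in WT, and rose by 1.42 (SE 0.30, adjusted p = 0.0409). Its other joined probes stood at 1.45 and 0.44. Fancd2 was not above background on any array of chip 1, and on chip 2 it read 8.60 and 7.74 in KO, against 6.61 and 6.17 in WT. Brca1, a repair factor that also shields stalled forks, read 6.26, 5.99, 7.68 and 6.76 in KO and 5.66, 6.18, 6.51 and 6.25 in WT (difference 0.52, SE 0.25, adjusted p = 0.262). Tipin, of the fork protection complex, read 6.51, 6.80, 8.79 and 7.58 in KO and 7.42, 4.59, 7.68 and 8.80 in WT, so that arrays of 1 genotype differed by more than the genotypes did (difference 0.30, SE 0.56). Another joined probe of Tipin stood at 0.87.

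The genes that drive entry into S phase all had positive differences, and 1 of the 3 passed. E2f1, an activating E2F factor, read 9.14, 9.35, 11.94 and 11.71 in KO, against 8.61, 7.59, 10.55 and 10.54 in WT, and rose by 1.21 (SE 0.22, adjusted p = 0.0256). Ccne1 and Ccne2 encode the E-type cyclins that activate Cdk2. Ccne1 read 6.52, 6.61, 7.75 and 7.39 in KO and 6.39, 5.16, 5.75 and 5.16 in WT, and was detected on all 4 KO arrays but on 1 of 4 WT arrays. Without the KO arrays Ccne1 would not have met the detection filter, which for such a gene favours a positive difference. On chip 2 it was not above background on either WT array. Ccne2 read 6.41, 6.59, 11.01 and 9.58 in KO and 6.28, 5.36, 8.45 and 8.24 in WT. For both cyclins every KO array exceeded the WT arrays of its chip, and the differences of 1.45 (SE 0.34, adjusted p = 0.0546) for Ccne1 and 1.31 (SE 0.37, adjusted p = 0.0922) for Ccne2 did not pass.

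Across the set, differences on chip 2 were larger than on chip 1 for 28 of the 36 members, as for 43.7% of all genes. The median over the members was 0.84 on chip 1 and 1.26 on chip 2. A test of the difference between the chips called none of the 36 members and none of all genes (limma interaction term; 6 members and 603 genes had an unadjusted p under 0.05). The 6 were Fancd2, Asf1b, Gins2, Mcm4, Ccne1 and Mcm10. Where a member has further joined probes past the filter, these pointed the same way: 14 such probes of 9 members all had positive differences, between 0.37 and 1.55.

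**Figure D3:**
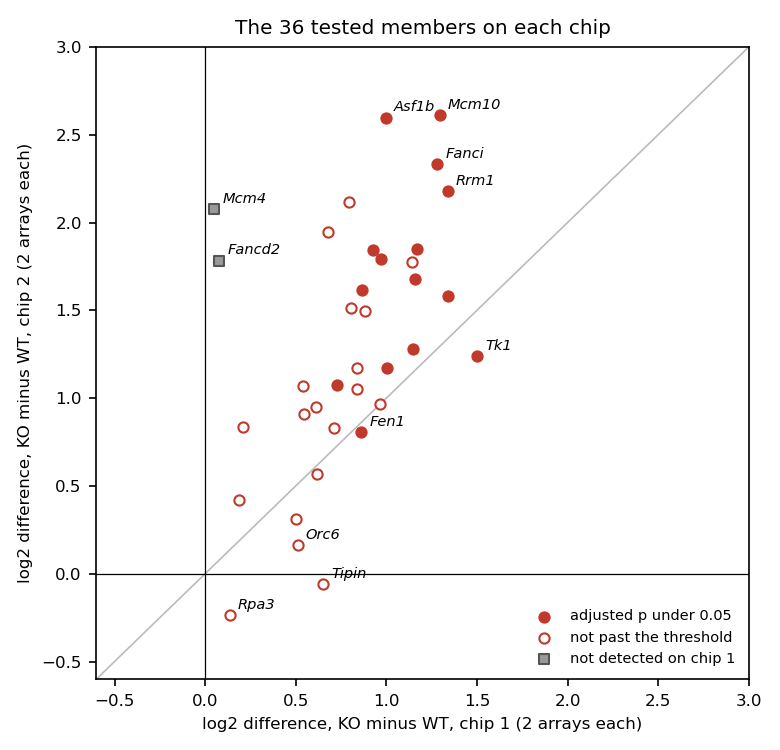
Each point is a tested member, with its log2 difference, KO minus WT, on chip 1 on the horizontal axis and on chip 2 on the vertical axis (2 arrays per genotype on each). Of the 36 points, 28 lie above the diagonal of equal differences, among them Asf1b and Mcm10, and the grey squares, Mcm4 and Fancd2, were not above background on chip 1.

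Chip 2 carries 34 tested probes of 28 members that have no partner on chip 1. All 34 had positive differences, with a median of 1.38, against 48.8% of the 21369 chip 2 probes tested and a median of -0.02. In 33 of the 34 both KO arrays lay above both WT arrays, as in 25.2% of all chip 2 probes tested. Of the 34, only a second Tk1 probe passed, with 2 arrays per genotype (adjusted p = 0.0457), where 0.117% of all probes rose. That probe was not above background on either WT array, and Tk1 was at least 3.10-fold higher in KO by it. It passed the detection filter through the KO arrays alone, as did probes of Orc1 and Tyms among the 34. For such probes the filter itself favours a positive difference.

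Among the 13 members measured on chip 2 alone, taken by their brightest probe, the median difference was 1.44 and none passed the test (limma, adjusted p under 0.05). Mcm3, a subunit of the Mcm2-7 ring, read 11.54 and 10.16 on KO replicates 3 and 4, against 8.42 and 8.26 on WT replicates 3 and 4, a difference of 2.51 (SE 0.45, adjusted p = 0.0671). The helicase cofactor gene Cdc45 read 10.71 and 10.06 in KO, against 8.56 and 8.33 in WT, a difference of 1.94 (SE 0.33, adjusted p = 0.06). The licensing factors gave similar pictures. Cdc6 read 10.76 and 9.65 in KO, against 8.28 and 8.05 in WT (difference 2.04, SE 0.40, adjusted p = 0.0816). Cdt1 read 12.39 and 11.62 in KO, against 10.29 and 10.10 in WT (difference 1.81, SE 0.34, adjusted p = 0.0762). Orc1, an origin recognition subunit, was above background on both KO arrays and on neither WT array, so it entered the test through KO alone. It was at least 1.74-fold higher in KO, without passing the test (adjusted p = 0.188).

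Rrm2, the small subunit of ribonucleotide reductase, read 11.72 and 11.17 in KO, against 9.92 and 9.80 in WT (difference 1.58, SE 0.31, adjusted p = 0.0816). Pold1, the catalytic subunit of the lagging-strand polymerase delta, read 12.10 and 11.20 in KO, against 10.12 and 9.96 in WT (difference 1.61, SE 0.36, adjusted p = 0.1). Timeless, the partner of Tipin, read 11.54 and 10.81 in KO, against 9.74 and 9.74 in WT (difference 1.44, SE 0.33, adjusted p = 0.106). Each of these separated the genotypes among the kept arrays of chip 2. Smaller differences were those of Pcna, the sliding clamp, at 0.90 (SE 0.33), the clamp loader gene Rfc3 at 0.93 (SE 0.28), the primase genes Prim2 at 0.90 (SE 0.32) and Prim1 at 0.59 (SE 0.35), and the polymerase delta subunit Pold2 at 0.56 (SE 0.28). For all 13, WT replicate 5 lay above both kept WT arrays (36.7% of all chip 2 probes) and above KO replicate 4 (48.0%). For all 13, KO replicate 5 lay below both kept KO arrays (33.5%).

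**Figure D4:**
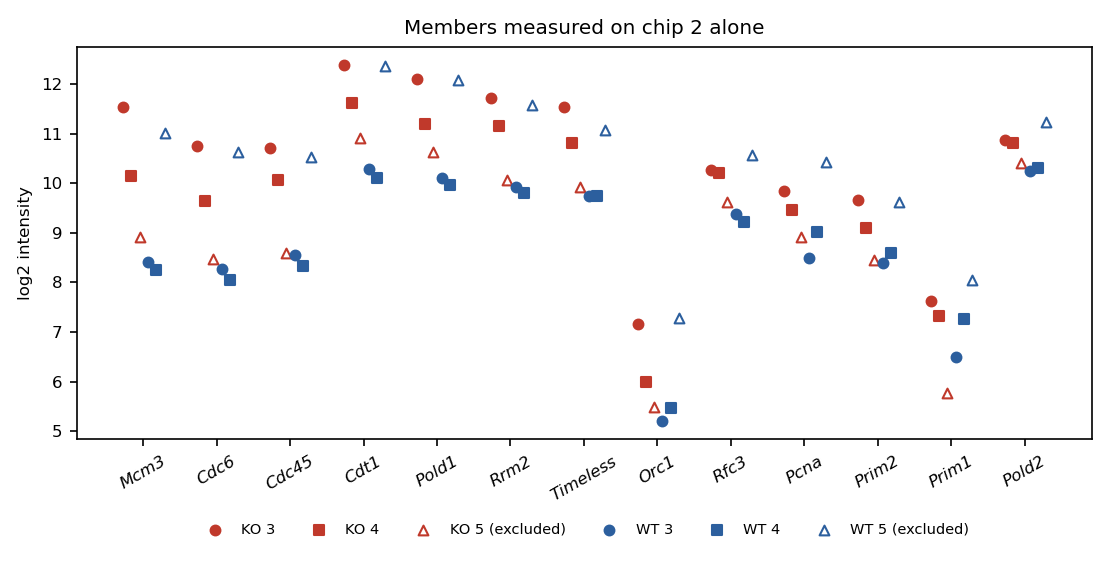
Log2 intensities of the 13 members measured on chip 2 alone, each by its brightest probe, ordered by the difference between genotypes (red KO, blue WT, open triangles the excluded replicate 5). In all 13 the KO arrays 3 and 4 lie above the WT arrays 3 and 4, and the open blue triangle of WT replicate 5 lies above KO replicate 4.

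Other genes of the cell cycle also had mostly positive differences. Of 51 further replication and recombination genes listed, 37 were tested, 4 rose, none fell and 33 had positive differences, with a median of 0.72. Among the 4 that rose were Recql4, a helicase of replication initiation, at 1.13 (SE 0.18, adjusted p = 0.0163), the S-phase activator Mybl2 at 1.30 (SE 0.28, adjusted p = 0.0423), and Rad54l, which acts in homologous recombination, at 1.36 (SE 0.30). Of 22 mitosis genes 16 were tested, 3 rose and 15 were positive, with a median of 0.93: Birc5, a survival and spindle factor, at 1.14 (SE 0.19), Ect2, needed for cytokinesis, at 1.89 (SE 0.34), and the DNA topoisomerase gene Top2a at 0.96 (SE 0.20). Among 11 tested regulators of G1, the cyclin D1 gene Ccnd1 was higher by 1.44 (SE 0.29, adjusted p = 0.0345), and the other 10 did not pass. Of these 11, 9 were positive, but the median was only 0.21 and the lowest difference was -1.01. The mitosis genes varied over the arrays like the members, at 0.61, 0.64, 1.58 and 0.83 on KO replicates 1 to 4, against 0.49, -0.49, -0.06 and 0.06 on WT replicates 1 to 4, and at 0.19 on KO replicate 5 and 1.48 on WT replicate 5.

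Few markers of cell classes passed the test. Of 8 tested progenitor genes, Slc1a3, the radial glial carrier of glutamate, was lower at -1.15 (SE 0.24, adjusted p = 0.0384), none rose, and the median was 0.29. The progenitor mean varied from -0.13 to 0.44 over the KO arrays and from -0.26 to 0.26 over the WT arrays, and was 0.56 on WT replicate 5. Of 10 tested neuronal genes none passed, with a median of -0.31, and Dcx alone had a positive difference. The 2 with the lowest p were Dcx and Mapt. Dcx, a microtubule gene of young neurons, stood at 0.62 (SE 0.16, adjusted p = 0.0789). Mapt, which encodes the axonal protein tau, stood at -0.66 (SE 0.26, adjusted p = 0.193). It was detected on 1 of 4 KO arrays and on 3 of 4 WT arrays. Of 4 erythroid, 8 endothelial, 3 microglial and 1 meningeal genes tested, none passed, with medians of -0.14, -0.13, -0.20 and 0.14. Of the erythroid genes only Klf1 was positive. The erythroid genes with the lowest p were Hbb-bh1, an embryonic globin, at -0.49 and Klf1, an erythroid transcription factor, at 0.33. In the endothelial list they were the tight junction gene Cldn5 at -0.55 and the adhesion gene Esam at -0.27, and in the microglial list the receptor gene Csf1r at -0.32 and the complement gene C1qb at -0.20. The meningeal gene was Twist1, a transcription factor of mesenchyme, at 0.14. Of 7 thalamic genes 2 fell, and 3 had positive differences. Those that fell were the knocked-out gene Gbx2 at -1.29 (SE 0.27) and Rora, a nuclear receptor of thalamic neurons, at -2.98 (SE 0.43). The part of these cell classes in the members' differences was not tested.

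**Figure D5:**
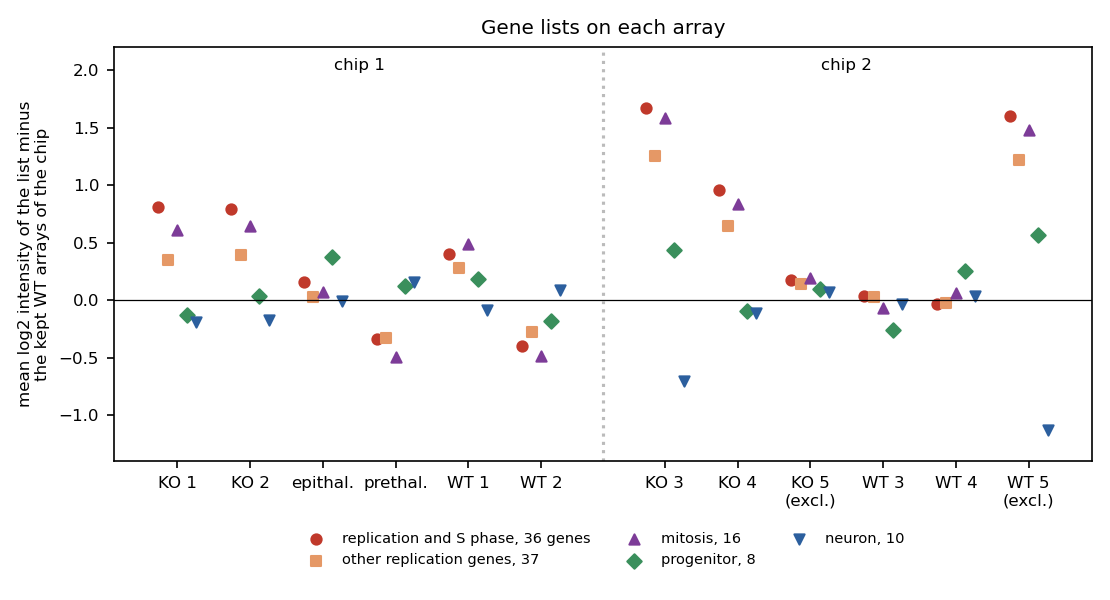
Mean log2 intensity of each gene list on each array, as a difference from the kept WT thalamus arrays of the same chip. Replication and mitosis genes are highest on KO replicate 3 (1.67 and 1.58) and on the excluded WT replicate 5 (1.60 and 1.48), the arrays on which neuronal genes are lowest (-0.70 and -1.13).

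The neighbouring regions of the diencephalon were measured on 1 array each, so each value was set against the pair of WT thalamus arrays on chip 1, with no test. On the epithalamus array none of 33 measured members was higher or lower than both WT thalamus arrays by a log2 difference of 1 or more, where 0.739% of all genes were higher and 0.772% lower. On the prethalamus array none of 32 was, where 0.888% of all genes were higher and 1.07% lower. On the epithalamus array 27 of the 33 members lay between WT replicate 1 and WT replicate 2, 4 lay above both and 2 below both. Those above were Mcm2, Mcm7, Gins2 and Fanci. On the prethalamus array 21 of the 32 lay between, 1 (Fanci) above both and 10 below both. The members' median on the prethalamus array was -0.62 from WT replicate 1 and 0.07 from WT replicate 2. On the epithalamus array it was -0.25 from WT replicate 1 and 0.68 from WT replicate 2. Over all genes the medians from WT replicates 1 and 2 were -0.01 and 0.04 on the epithalamus array, and 0 and 0.03 on the prethalamus array. Most members on both regional arrays lay within the spread of the WT thalamus arrays of chip 1. For the members that spread, WT replicate 1 minus WT replicate 2, had a median of 0.83. The share of all genes between, above or below these arrays was not counted, so the members' counts are descriptive only. Clspn, one of the 10 below both, read 6.76 on the prethalamus array, against 8.37 and 6.98 on WT replicates 1 and 2. Fanci, higher on both regional arrays, read 6.46 in epithalamus and 5.92 in prethalamus, against 5.83 and 5.32 in WT thalamus.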

How the data were processed

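RNA was measured on 12 arrays of 2 chips, grouped as the labels state. The deposited unnormalized tables hold a bead intensity per probe on a linear scale, without normalization, per the file headers, which name GenomeStudio 1.1.1. The submitters' processing notes also name BeadStudio and lumi. The deposited detection columns hold a fraction from 0 to 1, and the detection p was taken as 1 minus it. The authors' deposited normalized tables hold log2 values, made by a method not given in the sources used here, and served as an alternative.

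Signals of each chip were corrected by normexp, with an offset of 16, quantile-normalized and put on a log2 scale by the neqc function (limma 3.58.1, R 4.3.3). Of 31459 probes joined over the chips 31448 were used, standing for 23388 genes. Names came from the files and a RefSeq gene table of GRCm38.p6. A probe was tested if its detection p was under 0.05 on 4 or more of the 8 arrays, and the brightest such probe stood for its gene. KO and WT were compared with lmFit and eBayes, chip as a block, two-sided, with Benjamini-Hochberg adjustment over all genes at 0.05. Probes of chip 2 were also fitted alone (detected on at least 2 of 4 arrays). A probe at background on all arrays of a group was given a bound, set against the lowest detected signal of each array. On simulated data the procedure recovered 57 of 100 genes changed by 1 on the log2 scale and 92 of 100 changed by 2.

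Every member is named. Values in all arrays are given for members past the threshold and for up to 3 further members of a role with the highest mean intensity, and of each other list up to 4 genes past the threshold are named, or else the 2 lowest by p. One gene of the further replication list is not reported here. The members, roles, lists and motifs were chosen with earlier results of these data known. The number of arrays limits the precision.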

Additional observations from a re-analysis of the deposited data

Results flagged for a closer look

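On 1 KO array several members stood far from the other KO arrays. Taken from the WT mean of its chip, KO replicate 3 had Mcm2 at 2.16, Pole at 2.39, Lig1 at 1.51, Clspn at 2.07 and Fanci at 3.12, each with a gap to the next KO array too wide, relative to the range of the 4, by Dixon's criterion. The same held for the mean of the nucleotide supply genes at 1.67, of the fork protection genes at 1.85 and of the neuronal markers at -0.70. Chance alone sets apart about 1 in 20 groups of 4, and 36 members were examined.

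The excluded WT replicate 5, which enters none of the comparisons, had the 36 members at a mean of 1.60, relative to WT replicates 3 and 4. What sets this array apart was not tested.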

How the results depend on the processing

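The count of members higher in KO was 15, where 2.89% of all genes were called in either direction. It was 10 without background correction, 18 with detection required on all arrays (29 members tested) and 16 with the mean of a gene's probes. The shares of all genes called there were 1.45%, 4.28% and 2.82%. It was 7 under median scaling, where the median of all genes shifted by -0.10, 23 in the deposited normalized values and 1 without a detection filter (44 tested). The shares called there were 2.69%, 6.14% and 0.359%. Leaving out 1 array gave 0 to 27. No member passed in limma on chip 1 alone (19 at an unadjusted p under 0.05), without the chip block (7), or with replicate 5 added for both genotypes (4), for WT alone (16) or for KO alone (27), and 2 passed on chip 2 alone. Of all genes, 0% were called on chip 1 alone or without the chip block, and 0.433% on chip 2 alone. With replicate 5 added, 0.144% were called for both genotypes, 0.144% for WT alone and 0.558% for KO alone. Adding replicate 5 for 1 genotype was chosen after seeing the data.

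Replicate numbers gave no clear sign of pairing (correlations of deviations -0.11 on chip 1 and 0.11 on chip 2). With 2 arrays per genotype on each chip, each correlation rests on a single contrast and cannot decide whether samples were paired. With the replicate number as a block, 19 members were higher, of which 14 were also called without the block. Of all genes, 3.63% were called with it.

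The median difference was 0.56 with replicate 5 of both genotypes and 0.78 to 1.25 at the other settings run, apart from 1.26 on chip 2 alone. Members lower in KO numbered 0 at every setting, and members past 1 on the epithalamus and prethalamus arrays 0 at every setting.

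Of the chip 2 probes without a partner, 1 passed, and 0 passed without background correction, without a detection filter or with replicate 5. Leaving out 1 array, with the lone array assumed to vary like the others, gave 0 to 12, and the replicate block, added later, 21. The deposited normalized values were used only for probes shared by both chips, so these probes were not examined in them.

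For single members, 6 of 749 values changed sign: Rpa3 to 0.135 on chip 1 alone, Tipin to -0.057 on chip 2 alone and Rfc4 to -0.0096 with replicate 5 of both. Leaving out 1 array gave -0.137 to 0.043 for Rpa3 and -0.34 to 0.79 for Tipin. The causes were not tested. Dim probes limit what can be seen: 3 members were never tested.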
